A study of Mus musculus with 12 samples.

Results

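Neutrophil maturation and granule genes, a set of 34 symbols taken by name, were followed across an array study of mouse acute myeloid leukemia. The symbols were chosen with earlier results of these data known, so shares given beside all genes only describe the set. The set names proteins packed into the granules of maturing neutrophils and receptors that appear late on these cells. Of the 34 symbols, 33 had a probe set annotated to that symbol alone, 1 each, and all 33 passed the filter on dim probe sets. Fpr1 was not analysed here. The 33 genes stand among 17749 genes above the filter and 22180 genes with a single-symbol probe set.

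The leukemia was driven by MLL-AF9, a fusion oncogene introduced into C57BL/6J bone marrow progenitor and stem cells, and all 4 groups carried it. Recipients given 10 Gy of irradiation received 50000 such cells, and bone marrow was taken when each recipient developed leukemia. The 4 groups held 3 arrays each: L-GMP from AMPK-deficient leukemia (AMPKΔ/Δ, here KO), L-GMP from AMPKfl/fl leukemia (here WT), whole leukemia from KO and whole leukemia from WT. AMPK is a kinase that senses cellular energy, and the labels do not say which subunit or exon was deleted or with which Cre. Whole leukemia was the GFP+ fraction of the marrow. L-GMP, the leukemic cells with the surface profile of granulocyte-macrophage progenitors, were GFP+, lin-, c-kit+, CD16/32+ and CD34+, and the submitters equate them with leukemia-initiating cells. The antibodies behind lin- are not named in the labels, so it is not known here whether a neutrophil antigen was among them. Each sort gave 5000 cells. The labels do not state that replicates were separate animals, and a p-value here then reflects only differences among these 12 samples, part of which can be technical.

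Neutrophils mature in the marrow through a fixed order of stages, and each stage fills its own class of granule. Primary granule proteins are made first, at the promyelocyte stage, then specific (secondary) granule proteins, then gelatinase (tertiary) granule proteins, and chemoattractant receptors are acquired last. Transcription factors of the C/EBP family, above all C/EBP epsilon, and PU.1 are known drivers of this program in mouse and human. MLL-AF9 leukemia is arrested at a progenitor stage of the myeloid lineage, and part of its cells keep maturing.

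Values are log2 of the deposited intensity and are compared only within a gene, because probe sets differ in brightness. The 25% of probe sets with the lowest means, below 4.72, were left out, and differences near that level are compressed. The kinase itself was checked by array: Prkaa1, the catalytic alpha 1 subunit gene, lay at 6.83 to 7.31 in KO L-GMP against 7.99 to 8.33 in WT L-GMP, and at 6.95 to 7.45 in KO whole leukemia against 7.72 to 8.69 in WT whole leukemia. All 3 KO arrays lay below all 3 WT arrays in both populations. Prkaa2 lay between 4.66 and 5.05 on all 12 arrays. A pair of KO arrays stood apart. KO whole leukemia array 2 lay at 67.4 on the first principal component, which held 32.4% of the variance, where the remaining 11 ranged over -24.2 to 18.5. KO L-GMP array 2 lay at 41.3 on the second component, where the remaining 11 ranged over -21.8 to 19.6.

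Across the arrays the neutrophil genes formed a gradient. The mean log2 intensity of the 33 genes was 8.03, 7.39 and 7.87 in KO L-GMP, against 7.32, 7.11 and 8.28 in WT L-GMP. It was 8.25, 10.36 and 9.49 in KO whole leukemia, against 8.10, 7.89 and 9.51 in WT whole leukemia. KO whole arrays 2 and 3 and WT whole array 3 were the highest of the 12, and KO whole array 1 lay beside WT whole arrays 1 and 2. KO whole array 2 was the highest of all 12 arrays for 25 of the 33 genes, where it was the highest for 16.1% of all genes. WT L-GMP array 2 was the lowest for 13 of the 33, where it was the lowest for 10.9% of all genes. In bulk samples, fewer neutrophils and less of these RNAs per cell cannot be told apart.

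**Figure D1:**
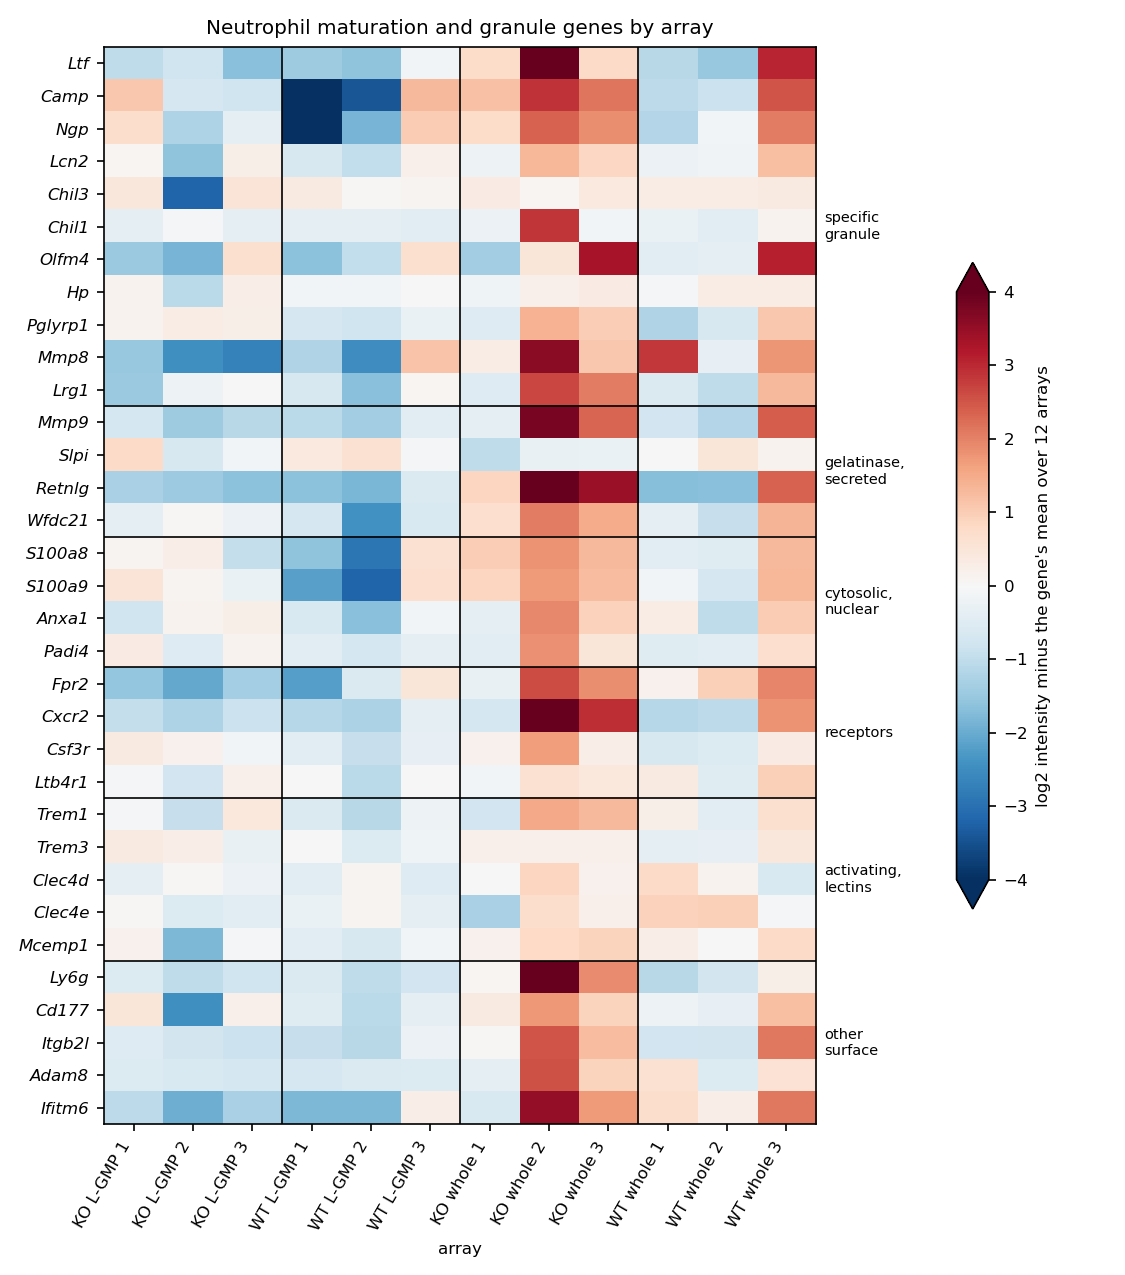
Each row is 1 of the 33 neutrophil genes, grouped by role, and each column is 1 array, with colour giving the log2 intensity minus the gene's mean over the 12 arrays. Most genes are darkest red in KO whole array 2, where 25 of 33 have their highest value, and Slpi, Clec4e, Trem3 and Chil3 do not follow that gradient.

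These genes also varied more within groups than most. The median SD between the 3 arrays was 0.46 for the 33 genes in KO L-GMP, 0.48 in WT L-GMP, 1.04 in KO whole leukemia and 0.90 in WT whole leukemia. Over all genes the same medians were 0.16, 0.15, 0.19 and 0.13. An SD above 1 was found for 6 of the 33 genes in KO L-GMP, 9 in WT L-GMP, 17 in KO whole leukemia and 14 in WT whole leukemia, where 0.98%, 0.86%, 2.33% and 0.73% of all genes had one. The largest within each group were Chil3 in KO L-GMP (2.13), Camp in WT L-GMP (3.03), Cxcr2 in KO whole leukemia (2.46) and Ltf in WT whole leukemia (2.52). A member's difference between groups of 3 therefore had a median standard error of 0.71, against 0.15 over all genes.

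Comparing L-GMP with whole leukemia asks how the level of the program in the sorted progenitors stands to that in the leukemia as a whole. L-GMP were gated on progenitor antigens, and whole leukemia was every GFP+ cell. Lower values of maturation genes in L-GMP can therefore follow from the sort itself, in both genotypes, and its part was not tested. In KO, L-GMP had the lower mean for 32 of 33 genes, with a median difference of -1.55 log2 and a range of -4.60 for Retnlg to 0.54 for Slpi. By limma with Benjamini-Hochberg adjustment over all genes, 0 of the 33 were called at an adjusted p under 0.05 (lowest adjusted p = 0.671), and 0% of all genes were called. Before adjustment 14 of the 33 had p under 0.05, and 1312 of all 17749. For 15 of the 33 genes every KO L-GMP array lay below every KO whole leukemia array, where 4.66% of all genes did so, and 0 of the 33 lay above on all arrays, where 5.49% of all genes did. The 15 were Ltf, Camp, Ngp, Mmp8, Mmp9, Retnlg, Wfdc21, S100a8, S100a9, Fpr2, Cxcr2, Ly6g, Itgb2l, Adam8 and Ifitm6. Without KO whole array 2 the median difference was -1.11. Without KO whole array 1 there were 26 such genes, where 13.5% of all genes lay wholly below, and 1 member, Ly6g, was called (difference -3.94, adjusted p = 0.0474) among 40 genes.

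In WT, L-GMP also had the lower mean for 32 of 33 genes, with a median difference of -0.79 (range -2.35 for Camp to 0.10 for Slpi). By limma 0 of the 33 were called (adjusted p = 1.00 or just below for each), and 0% of all genes. Before adjustment 2 of the 33 had p under 0.05, Ifitm6 (-2.13) and Fpr2 (-1.8), and 443 of all genes. Mcemp1, Cd177 and Adam8 were the 3 members with every WT L-GMP array below every WT whole leukemia array, where 5.4% of all genes were, and 0 members were above, where 4.89% were. These counts depended on single arrays. WT L-GMP array 3 had the highest value of the 6 L-GMP arrays for 14 of the 33 genes and for 11.6% of all genes, and without it 16 members lay wholly below, where 11.1% of all genes did. Without WT whole array 2, 10 members did, where 10.7% of all genes did, and without WT whole array 1 or array 3, 5 did, where 9.2% and 9.76% did. Without WT whole array 3 the median difference was -0.29, with 23 of 33 lower.

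The labels do not state that equal replicate numbers pair samples. In WT, deviations of L-GMP and whole leukemia from their group means correlated at 0.36, 0.62 and 0.30 for equal numbers over all genes tested. Equal numbers in WT are therefore described as pairs here. L-GMP lay below whole leukemia in 25, 31 and 32 of the 33 genes in pairs 1, 2 and 3, with median differences of -0.31, -0.58 and -1.03. In 23 of 33 genes L-GMP was lower in all 3 pairs, where 15.3% of all genes were. Trem1 was among the most even, at -0.81, -0.67 and -0.83, and Ltf among the least, at -0.30, -0.09 and -3.16. The limma fit above ignored this pairing. A replicate block by number left 0 members called in WT, but it is shared by both genotypes and does not model pairs within WT alone. A block by genotype and number, with a common correlation of 0.15 for both genotypes, also left 0 called. Equal numbers in KO are not described as pairs, since KO L-GMP number 2 correlated better with KO whole leukemia number 1. Taken by number all the same, KO L-GMP lay below KO whole leukemia in 20, 32 and 31 of the 33 genes. The median differences were -0.16, -2.87 and -1.51 for KO numbers 1, 2 and 3.

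**Figure D2:**
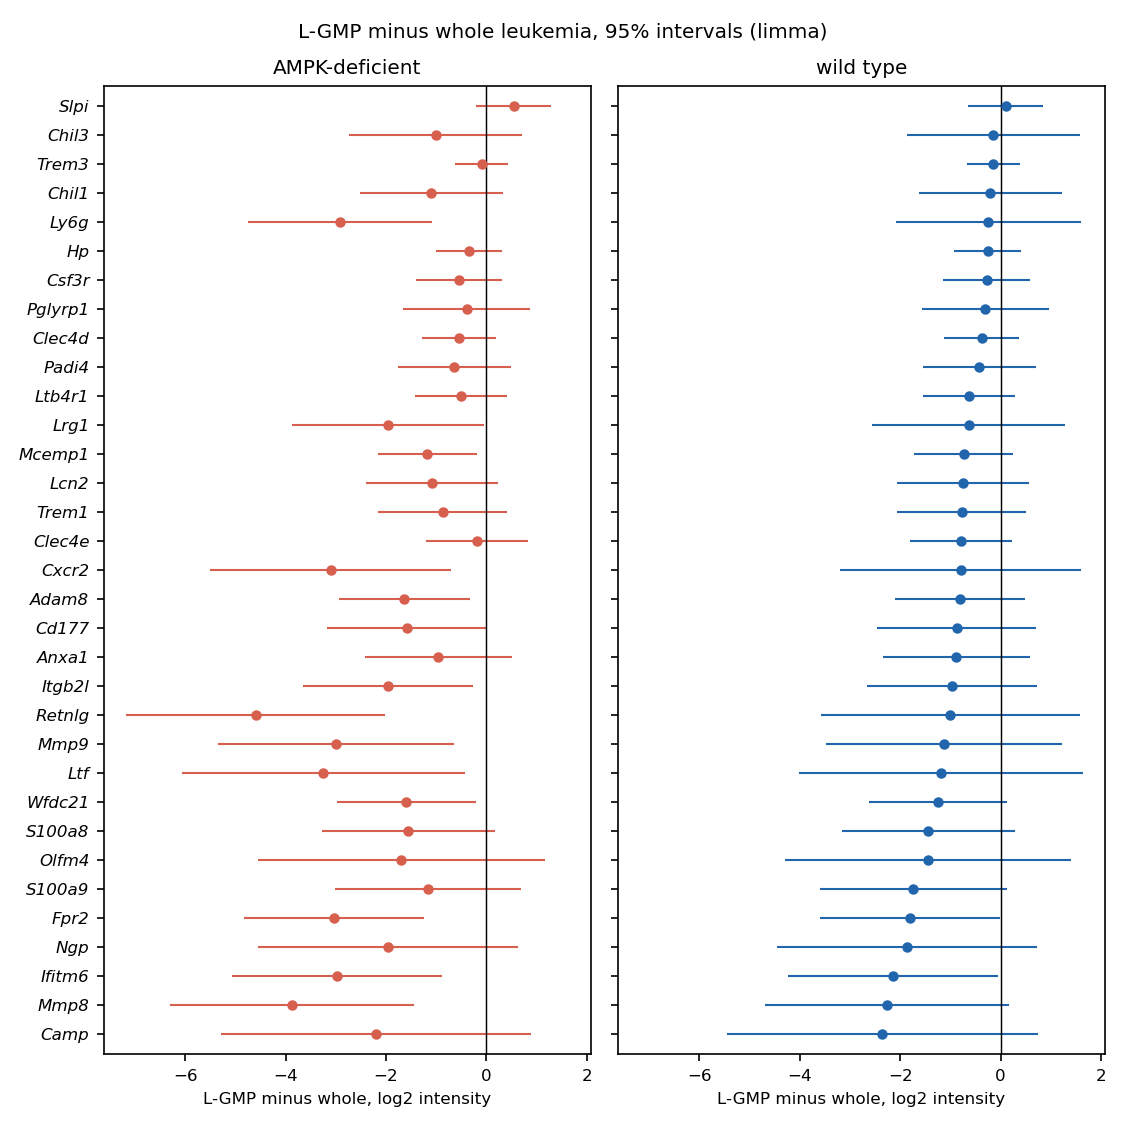
Points are differences in mean log2 intensity, L-GMP minus whole leukemia, for each of 33 genes in KO (left) and WT (right), with 95% intervals from limma (n = 3 arrays a group). In both genotypes 32 of 33 points lie below 0, Slpi is the exception, and the KO points spread down to -4.60.

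The C/EBP-like word TTNNGCAA or its reverse complement TTGCNNAA lay in the promoter window of 11 of the 29 members with an entry (37.9%), where 12.2% of 27025 genes with an entry had it. The PU.1-like word GAGGAAGT or its reverse complement ACTTCCTC lay in 6 of the 29 (20.7%), against 3.69% of all. The window runs from 250 bases before to 50 after the gene start, both strands were searched, and the words do not overlap each other in the promoters printed here. A match is a description of the letters and not a binding site. The C/EBP-like word was found for Ltf, Ngp, Lcn2, Mmp8, Slpi, Retnlg, S100a9, Anxa1, Clec4e, Ly6g and Adam8, and the PU.1-like word for Olfm4, Mmp8, S100a8, Ltb4r1, Ly6g and Itgb2l. Mmp8 and Ly6g had both. Of the genes with a C/EBP-like word, the 4 with the largest difference between KO L-GMP and KO whole leukemia are shown, from RefSeq on GRCm38.p6, 5′ to 3′ on the gene's strand, which is plus for all 4. Capitals mark the words. The windows are chr16:48872358-48872657 for Retnlg, chr9:7558179-7558478 for Mmp8, chr9:111019042-111019341 for Ltf and chr15:75155011-75155310 for Ly6g, the last at the first of 2 annotated starts.
Retnlg: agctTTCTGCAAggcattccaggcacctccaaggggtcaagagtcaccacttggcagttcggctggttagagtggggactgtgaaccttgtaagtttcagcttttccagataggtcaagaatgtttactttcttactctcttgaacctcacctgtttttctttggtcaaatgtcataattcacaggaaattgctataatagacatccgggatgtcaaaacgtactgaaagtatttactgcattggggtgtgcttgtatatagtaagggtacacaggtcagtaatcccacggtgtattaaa
Mmp8: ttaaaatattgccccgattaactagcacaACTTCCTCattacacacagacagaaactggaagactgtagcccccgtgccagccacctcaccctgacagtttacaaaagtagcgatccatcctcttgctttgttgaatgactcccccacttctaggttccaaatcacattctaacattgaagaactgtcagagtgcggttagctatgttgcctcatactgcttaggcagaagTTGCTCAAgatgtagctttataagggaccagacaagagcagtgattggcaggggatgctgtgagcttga
Ltf: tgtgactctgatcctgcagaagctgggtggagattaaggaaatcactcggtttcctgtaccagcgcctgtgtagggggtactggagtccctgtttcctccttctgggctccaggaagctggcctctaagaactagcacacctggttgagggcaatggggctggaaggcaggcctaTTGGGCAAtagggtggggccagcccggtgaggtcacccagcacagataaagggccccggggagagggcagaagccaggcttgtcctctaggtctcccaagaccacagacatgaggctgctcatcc
Ly6g: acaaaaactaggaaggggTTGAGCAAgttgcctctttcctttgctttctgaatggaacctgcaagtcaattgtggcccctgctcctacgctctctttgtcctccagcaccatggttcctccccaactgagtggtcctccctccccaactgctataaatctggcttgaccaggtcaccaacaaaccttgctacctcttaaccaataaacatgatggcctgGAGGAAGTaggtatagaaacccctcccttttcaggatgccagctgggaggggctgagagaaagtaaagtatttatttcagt

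Comparing KO with WT asks whether loss of AMPK goes with a different level of the program. In whole leukemia KO had the higher mean for 29 of 33 genes, with a median difference of 0.77 (range -0.75 for Slpi to 3.48 for Retnlg), and the 2 largest were those of Retnlg and Ly6g. By limma 0 of the 33 were called (lowest adjusted p = 0.808, for Ly6g), and 0% of all genes were. Before adjustment 5 of the 33 had p under 0.05, namely Ly6g, Retnlg, Csf3r and Wfdc21, higher in KO, and Slpi, lower in KO, beside 1059 of all genes. For 0 of the 33 did every KO array lie above every WT array, where 5.46% of all genes did. For 1, Slpi, every KO array lay below, where 5.73% of all genes did. The overlap lay with KO whole array 1 and WT whole array 3: without KO whole array 1, 9 members lay wholly above WT, and without WT whole array 3, 18 did, where 14.4% and 10.6% of all genes did. Without KO whole array 2 the median difference was 0.19, with 26 of 33 higher.

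In L-GMP the same comparison gave no common direction. KO had the higher mean for 18 of 33 genes and the lower for 15, with a median difference of 0.06 and a range of -1.38 for Mmp8 to 2.02 for Camp. By limma 0 of the 33 were called, and 0 had an unadjusted p under 0.05, beside 733 of all genes, and 0.00563% of all genes, 1 gene outside the set, were called. Pglyrp1, Wfdc21 and Csf3r were the 3 members with every KO L-GMP array above every WT L-GMP array, where 5.82% of all genes were, and 0 members lay wholly below, where 3.66% were. Without KO L-GMP array 2 the median was 0.26, and without WT L-GMP array 3 it was 0.33, and 9 and 8 members lay wholly above WT, where 12.7% and 10.3% of all genes did. Without KO L-GMP array 1 or WT L-GMP array 2, 5 members did, where 11.1% and 11.0% of all genes did. Without WT L-GMP array 2 the median was -0.12.

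**Figure D3:**
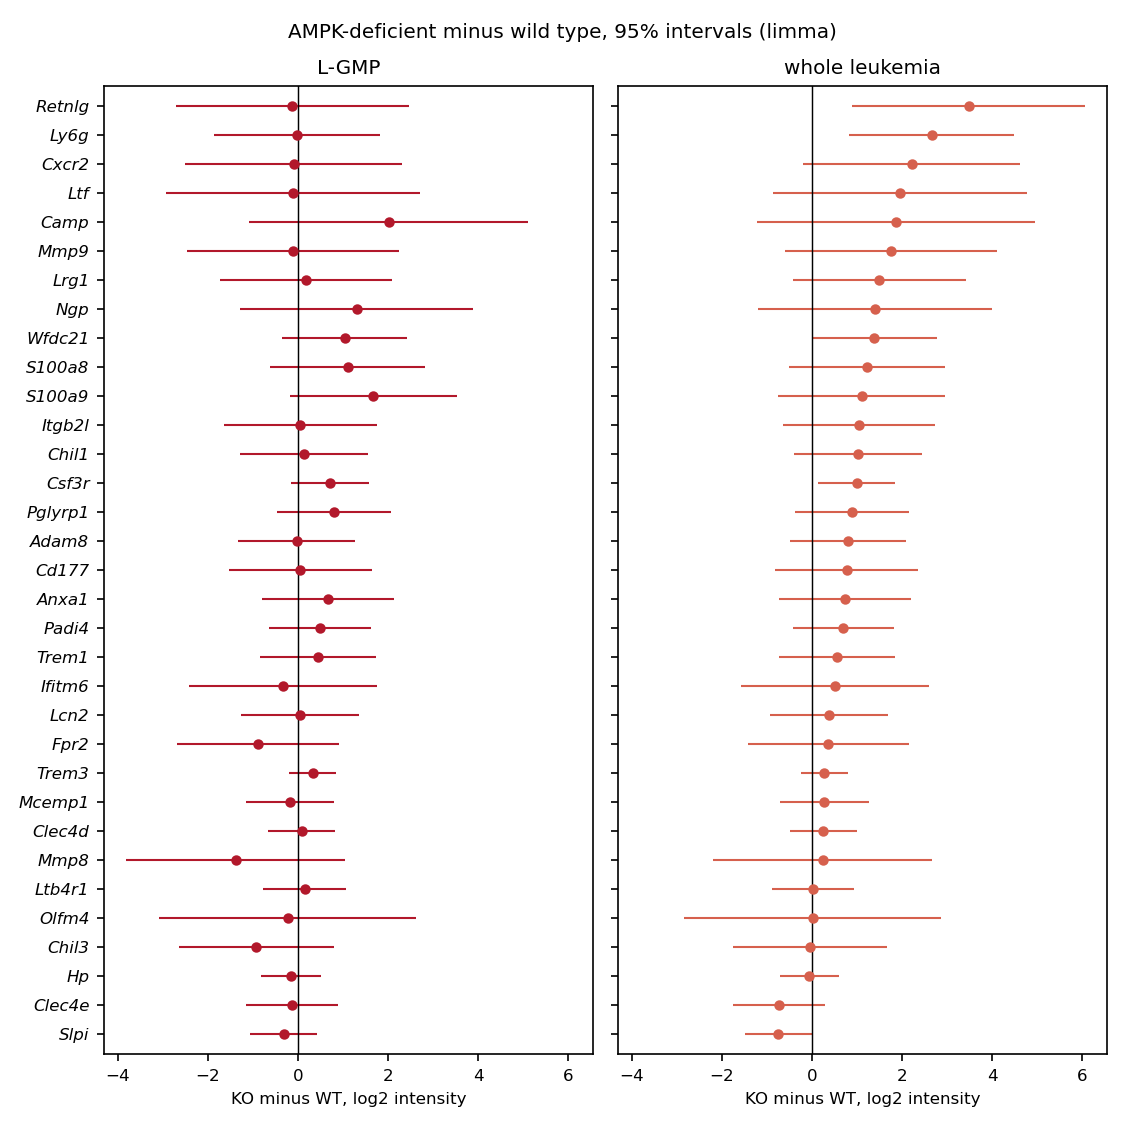
Points are differences in mean log2 intensity, KO minus WT, for each of 33 genes in L-GMP (left) and whole leukemia (right), with 95% intervals from limma (n = 3 arrays a group). In whole leukemia 29 of 33 points lie above 0, and in L-GMP 18 do. All intervals cross 0 in L-GMP, and most do in whole leukemia.

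Whether the genotype difference itself differed between the populations was tested by the interaction, the KO minus WT difference in L-GMP minus that in whole leukemia. It was below 0 for 27 of 33 genes, with a median of -0.32 and a range of -3.60 for Retnlg to 0.60 for Clec4e. By limma 0 of the 33 and 0% of all genes were called (adjusted p = 1). Before adjustment 1 member had p under 0.05, Ly6g, at -2.67 (SE 1.17, 95% interval -5.27 to -0.07), beside 365 of all genes. Without both KO arrays numbered 2 the median was 0.19, and the direction for the group turned.

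Among the 11 specific granule genes, KO L-GMP lay below KO whole leukemia with a median of -1.69 and WT L-GMP below WT whole leukemia with a median of -0.75, with all 11 lower in both. Ltf, which encodes the iron-binding protein lactoferrin, measured 5.91, 6.11 and 5.23 in KO L-GMP, against 5.5, 5.31 and 6.8 in WT L-GMP. It lay at 7.65, 11.65 and 7.69 in KO whole leukemia, against 5.8, 5.4 and 9.96 in WT whole leukemia. KO whole array 2 and WT whole array 3 were far above the other arrays, and every KO whole array lay above every KO L-GMP array. The Ltf difference was -3.25 (SE 1.27, 95% interval -6.07 to -0.43) for L-GMP minus whole leukemia in KO (adjusted p = 0.671 by limma) and 1.95 (SE 1.27) for KO minus WT in whole leukemia (adjusted p = 0.854).

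Camp, the cathelicidin antimicrobial peptide gene, measured 10.7, 8.94 and 8.83 in KO L-GMP, against 5.28, 6.21 and 10.93 in WT L-GMP. Levels were 10.8, 12.51 and 11.75 in KO whole leukemia, against 8.58, 8.76 and 12.14 in WT whole leukemia. WT L-GMP arrays 1 and 2 were the lowest of the 12, while WT L-GMP array 3 was above all KO L-GMP arrays, so the genotypes overlapped. KO minus WT was 2.02 (SE 1.39) in L-GMP and 1.86 (SE 1.39) in whole leukemia (adjusted p = 1.00 and 0.871 by limma). Ngp, the neutrophilic granule protein gene and a relative of Camp, had the same shape, with 8.92 ± 0.97 in KO L-GMP against 7.62 ± 2.51 in WT L-GMP (SD, n = 3 each).

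Chil3, the chitinase-like lectin Ym1, measured 12.08, 8.42 and 12.15 in KO L-GMP, against 12, 11.69 and 11.73 in WT L-GMP. Its levels were 11.96, 11.71 and 12.03 in KO whole leukemia, against 11.93, 11.93 and 11.99 in WT whole leukemia. It was high on 11 arrays, and KO L-GMP array 2 alone was low. Chil3 has a close paralogue, Chil4, whose RNA the probes could also bind. Olfm4, a glycoprotein of a subset of specific granules, measured 5.67, 5.28 and 7.78 in KO L-GMP, against 5.49, 6.15 and 7.78 in WT L-GMP, and 5.76, 7.62 and 10.43 in KO whole leukemia, against 6.72, 6.79 and 10.25 in WT whole leukemia. The number-3 arrays were the highest in each of the 4 groups, and KO minus WT in whole leukemia was 0.02 (SE 1.29). The remaining specific granule genes were Lcn2, an iron-siderophore binder, Hp, haptoglobin, Pglyrp1, a peptidoglycan receptor, Mmp8, the neutrophil collagenase, Lrg1 and Chil1. Mmp8 was 5.55 ± 0.62 in KO L-GMP against 9.42 ± 1.73 in KO whole leukemia, a difference of -3.87 (SE 1.10, 95% interval -6.31 to -1.44) with no overlap (adjusted p = 0.671 by limma). Hp had L-GMP minus whole leukemia differences of -0.35 in KO and -0.26 in WT. Chil1 was above 6 on KO whole array 2 alone, at 8.28.

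The gelatinase granule and secreted proteins held both ends of the KO minus WT range in whole leukemia. Retnlg, encoding a resistin-like secreted protein of mature rodent neutrophils, measured 4.9, 4.73 and 4.54 in KO L-GMP, against 4.55, 4.36 and 5.61 in WT L-GMP. It lay at 7.04, 11.28 and 9.63 in KO whole leukemia, against 4.48, 4.52 and 8.53 in WT whole leukemia. It was within 1 log2 of the dim level on all 6 L-GMP arrays and on WT whole arrays 1 and 2, and it was high on all KO whole arrays and on WT whole array 3. L-GMP minus whole leukemia was -4.6 (SE 1.16, 95% interval -7.18 to -2.02) in KO (adjusted p = 0.671 by limma) and -1.0 (SE 1.16) in WT. KO minus WT in whole leukemia was 3.48 (SE 1.16, 95% interval 0.90 to 6.06), at an adjusted p of 0.827, and WT array 3 lay above KO array 1.

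Mmp9, gelatinase B, the enzyme that names the tertiary granule, measured 6.19, 5.46 and 5.77 in KO L-GMP, against 5.82, 5.51 and 6.44 in WT L-GMP. Levels were 6.51, 10.69 and 9.21 in KO whole leukemia, against 6.13, 5.71 and 9.3 in WT whole leukemia. KO whole arrays 2 and 3 and WT whole array 3 stood above 9, and KO whole array 1 lay just above all L-GMP arrays and WT whole arrays 1 and 2. Its differences were -2.99 (SE 1.06) for L-GMP minus whole leukemia in KO and 1.75 (SE 1.06) for KO minus WT in whole leukemia (adjusted p = 0.671 and 0.848 by limma). Wfdc21, a small secreted protein gene, was 9.75 ± 0.20 in KO L-GMP against 8.71 ± 1.02 in WT L-GMP, and 11.34 ± 0.69 in KO whole leukemia against 9.96 ± 1.19 in WT whole leukemia (SD, n = 3 each). The KO arrays lay wholly above WT in L-GMP and overlapped WT array 3 in whole leukemia.

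Slpi, an inhibitor of neutrophil elastase and other serine proteases, ran the other way. It measured 12, 10.61 and 11.11 in KO L-GMP, against 11.63, 11.84 and 11.19 in WT L-GMP. Its levels were 10.22, 10.93 and 10.96 in KO whole leukemia, against 11.26, 11.72 and 11.37 in WT whole leukemia, with every KO array below every WT array. KO minus WT was -0.75 (SE 0.34, 95% interval -1.50 to -0.00) in whole leukemia (adjusted p = 0.829 by limma), and the interval's upper end was just below 0. The difference lay between -0.88 and -0.51 over the 22 alternative fits, with adjusted p between 0.614 and 1.00. Only quantile normalization, array weights and leaving out whole leukemia arrays could change its size.

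**Figure D4:**
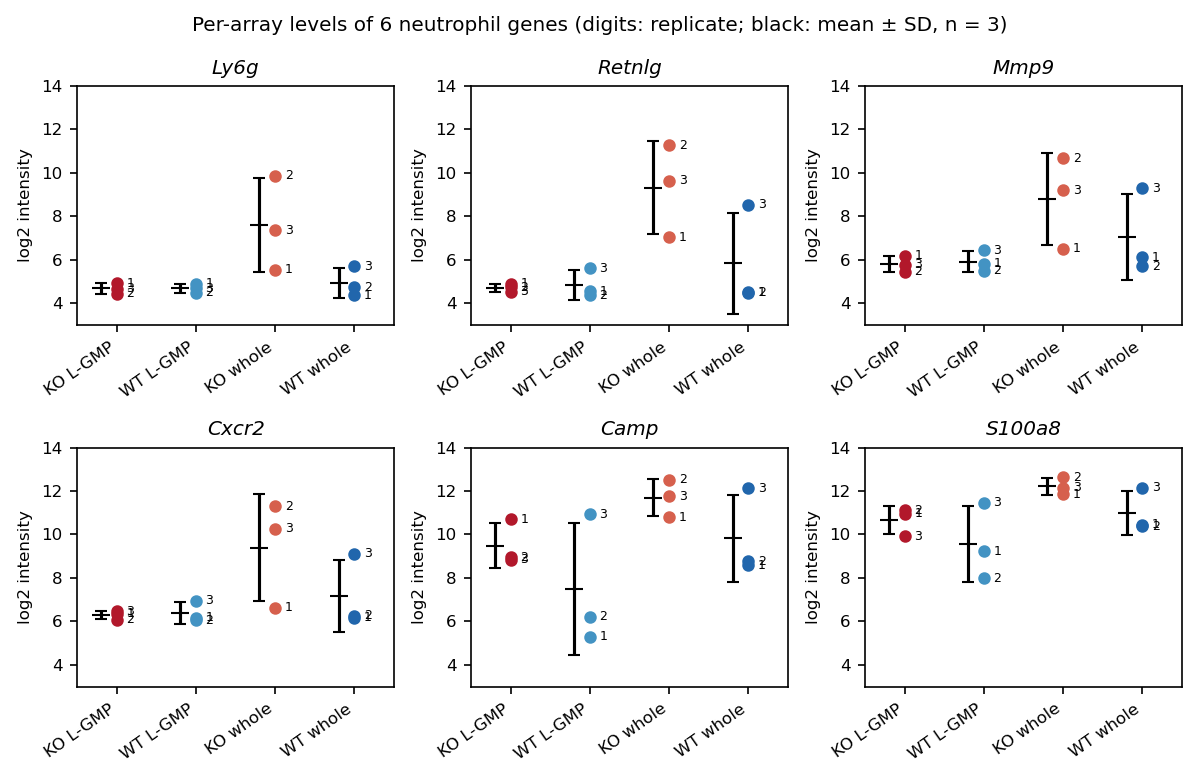
Log2 intensity of Ly6g, Retnlg, Mmp9, Cxcr2, Camp and S100a8 on each array, with digits giving the replicate and black bars the mean ± SD (n = 3). In the top row and for Cxcr2 the L-GMP arrays are low in both genotypes while KO whole leukemia spreads widely, and WT whole array 3 lies apart from WT arrays 1 and 2 in all 6 genes.

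All 4 genes of cytosolic and nuclear proteins had the higher mean in KO in both populations, with medians of 0.88 in L-GMP and 0.92 in whole leukemia. S100a8, which with S100a9 forms the calprotectin complex of the neutrophil cytosol, measured 10.96, 11.1 and 9.91 in KO L-GMP, against 9.23, 7.98 and 11.45 in WT L-GMP. It lay at 11.85, 12.64 and 12.15 in KO whole leukemia, against 10.44, 10.38 and 12.14 in WT whole leukemia. S100a9 measured 11.21, 10.81 and 10.43 in KO L-GMP, against 8.54, 7.5 and 11.37 in WT L-GMP, and 11.57, 12.42 and 11.94 in KO whole leukemia, against 10.58, 10.02 and 12.02 in WT whole leukemia. For both genes WT L-GMP arrays 1 and 2 were the lowest of the 12, and the number-3 WT arrays overlapped KO in each population. KO minus WT for S100a9 was 1.68 (SE 0.84, 95% interval -0.18 to 3.53) in L-GMP and 1.1 (SE 0.84) in whole leukemia (adjusted p = 1.00 and 0.875 by limma). Anxa1, an anti-inflammatory annexin, and Padi4, which citrullinates histones, differed by 0.73 and 0.7 between KO and WT whole leukemia.

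Among the receptors, Cxcr2, which binds neutrophil-attracting chemokines and releases neutrophils from marrow, measured 6.34, 6.06 and 6.46 in KO L-GMP, against 6.16, 6.05 and 6.94 in WT L-GMP. Levels were 6.62, 11.29 and 10.27 in KO whole leukemia, against 6.16, 6.26 and 9.1 in WT whole leukemia. All 6 L-GMP arrays lay within 6.05 to 6.94, and KO whole arrays 2 and 3 and WT whole array 3 stood above 9. L-GMP minus whole leukemia was -3.1 (SE 1.08, 95% interval -5.51 to -0.70) in KO and KO minus WT in whole leukemia was 2.22 (SE 1.08, 95% interval -0.19 to 4.62) (adjusted p = 0.671 and 0.829 by limma). Fpr2, a formyl peptide receptor, had L-GMP minus whole leukemia differences of -3.04 (SE 0.81) in KO and -1.8 (SE 0.81) in WT (adjusted p = 0.671 and 1.00 by limma).

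Csf3r, the receptor for the granulocyte growth factor G-CSF, measured 8.22, 8.02 and 7.75 in KO L-GMP, against 7.39, 6.93 and 7.52 in WT L-GMP. Its levels were 8.02, 9.51 and 8.12 in KO whole leukemia, against 7.21, 7.28 and 8.18 in WT whole leukemia. Every KO L-GMP array lay above every WT L-GMP array, and in whole leukemia WT array 3 lay above KO arrays 1 and 3. KO minus WT was 0.72 (SE 0.39, 95% interval -0.14 to 1.57) in L-GMP and 0.99 (SE 0.39, 95% interval 0.13 to 1.85) in whole leukemia, with adjusted p = 1.00 and 0.827 by limma. Ltb4r1, the leukotriene B4 receptor, measured 8.15, 7.44 and 8.4 in KO L-GMP, against 8.2, 7.13 and 8.2 in WT L-GMP, and 8.09, 8.82 and 8.62 in KO whole leukemia, against 8.58, 7.72 and 9.15 in WT whole leukemia. Its number-2 arrays were low in KO L-GMP, WT L-GMP and WT whole leukemia, and its genotype difference in whole leukemia was 0.03 (SE 0.41, 95% interval -0.89 to 0.95).

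The activating receptors and lectins, which are shared with monocytes, had class medians of 0.08 in L-GMP and 0.27 in whole leukemia for KO minus WT. Clec4e, the C-type lectin Mincle, measured 7.98, 7.41 and 7.52 in KO L-GMP, against 7.69, 8.06 and 7.55 in WT L-GMP. It lay at 6.65, 8.65 and 8.16 in KO whole leukemia, against 8.88, 8.91 and 7.86 in WT whole leukemia, and KO array 1 was the lowest of the 12. Trem1, which amplifies inflammatory signalling, measured 7.3, 6.48 and 7.82 in KO L-GMP, against 6.81, 6.26 and 7.19 in WT L-GMP, and 6.62, 8.91 and 8.7 in KO whole leukemia, against 7.62, 6.94 and 8.01 in WT whole leukemia. KO whole arrays 2 and 3 were the highest for Trem1, and KO whole array 1 lay below all WT whole arrays. Mcemp1, a small membrane protein of mast cells and neutrophils, measured 9.87, 7.9 and 9.61 in KO L-GMP, against 9.27, 9.06 and 9.57 in WT L-GMP, and 9.85, 10.47 and 10.57 in KO whole leukemia, against 9.94, 9.7 and 10.44 in WT whole leukemia. Every WT L-GMP array lay below every WT whole array for Mcemp1, with a difference of -0.73 (SE 0.44). KO minus WT in whole leukemia was -0.73 (SE 0.46) for Clec4e, 0.55 (SE 0.58) for Trem1 and 0.27 (SE 0.44) for Mcemp1, at adjusted p between 0.853 and 0.953 by limma. Clec4d and Trem3 differed by 0.25 and 0.28, and Trem3 had the narrowest range of the 33 genes over the 12 arrays, at 0.97.

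Ly6g, the surface antigen by which mouse neutrophils are usually sorted, measured 4.93, 4.45 and 4.68 in KO L-GMP, against 4.91, 4.48 and 4.7 in WT L-GMP. Levels were 5.55, 9.88 and 7.37 in KO whole leukemia, against 4.37, 4.74 and 5.71 in WT whole leukemia. All 6 L-GMP arrays, all WT whole arrays and KO whole array 1 lay within 1 log2 of the dim level, where differences are compressed. KO whole arrays 2 and 3 lay above all WT arrays, and KO whole array 1 lay below WT array 3. KO minus WT in whole leukemia was 2.66 (SE 0.83, 95% interval 0.82 to 4.50), with the lowest p of the 33 genes there and an adjusted p of 0.808 by limma. Over 22 alternative fits that difference lay between 1.52 and 3.68, with adjusted p between 0.141 and 1.00. Here too, only quantile normalization, array weights and leaving out whole leukemia arrays could change its size. L-GMP minus whole leukemia was -2.91 (SE 0.83, 95% interval -4.75 to -1.08) in KO and -0.25 (SE 0.83) in WT.

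Itgb2l, a relative of the beta 2 integrin, measured 5.25, 5.02 and 4.91 in KO L-GMP, against 4.85, 4.65 and 5.51 in WT L-GMP. Its levels were 5.8, 8.27 and 6.98 in KO whole leukemia, against 5.01, 5.04 and 7.88 in WT whole leukemia. Cd177, a GPI-anchored neutrophil surface protein, measured 9.38, 6.45 and 9.09 in KO L-GMP, against 8.41, 7.83 and 8.52 in WT L-GMP, and 9.26, 10.64 and 9.8 in KO whole leukemia, against 8.71, 8.59 and 10.1 in WT whole leukemia. Itgb2l was low on all L-GMP arrays, whereas Cd177 was low on KO L-GMP array 2 alone. KO minus WT in whole leukemia was 1.04 (SE 0.76) for Itgb2l and 0.77 (SE 0.71) for Cd177, adjusted p = 0.869 and 0.893 by limma. Ifitm6, an interferon-induced transmembrane family gene, and Adam8, a surface metalloprotease, had L-GMP minus whole leukemia differences of -2.97 (SE 0.94) and -1.63 (SE 0.58) in KO, with no overlap, and of -2.13 (SE 0.94) and -0.81 (SE 0.58) in WT, where Ifitm6 overlapped (adjusted p = 0.671 in KO and 1.00 in WT by limma).

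Other genes of the neutrophil lineage did not share the gradient as one block. Of the primary granule list, Bpi lay below the filter. Its other members were Mpo, Elane, Prtn3, Ctsg, Prss57, Ms4a3 and Serpinb1a. By mean, 6 of 7 were higher in L-GMP than in whole leukemia in KO and 5 of 7 in WT. The medians were 0.63 and 0.16, with 0 called by limma. All 7 were higher in KO than in WT in L-GMP, by a median of 0.46, with 0 called, Prss57, a serine protease of primary granules, at the lowest p (1.51, SE 0.49). The primary granule mean was lowest of the 12 on KO whole array 2, at 9.31. These means overlapped between populations, at 10.59, 10.99 and 10.19 in KO L-GMP against 10.70, 9.31 and 10.09 in KO whole leukemia. In WT they were 10.18, 9.52 and 9.94 in L-GMP against 9.55, 9.59 and 10.09 in whole leukemia. The NADPH oxidase list, which makes the respiratory burst, was lower in L-GMP for 5 of 5 genes in both genotypes, with medians of -0.56 in KO and -0.54 in WT. Between genotypes its medians were -0.13 in L-GMP and 0.13 in whole leukemia. The late neutrophil list was lower in KO L-GMP than in KO whole leukemia for 11 of 11 genes, by a median of -1.14. Ccl6, a chemokine, Il1r2, a decoy receptor, and Il1b, the cytokine interleukin 1 beta, had the lowest p in KO (-1.75, -2.61 and -1.70). In WT the list was lower in L-GMP for 10 of 11 genes, by a median of -0.54. Among 12 transcription factors of granulocyte and monocyte fate 4 were higher and 8 lower in KO L-GMP than in KO whole leukemia, with a median of -0.09. For the same factors in WT, 5 were higher and 7 lower in L-GMP, with a median of -0.21. By limma 0 genes of these lists were called in any of the 5 comparisons.

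Markers of other cell types also differed between arrays. Of 11 erythroid genes 7 passed the filter, and their mean was 5.2, 9.04 and 5.96 in KO whole leukemia, against 5.24, 5.28 and 5.09 in WT whole leukemia, and 7 of 7 had the higher mean in KO. The second KO whole array, highest for the neutrophil genes, was thus also highest for the erythroid list, and its part in the neutrophil result was not tested. The other high arrays, KO whole array 3 and WT whole array 3, had erythroid means of 5.96 and 5.09. The mean of 14 monocyte and macrophage genes was 7.40, 6.96 and 7.56 in KO whole leukemia, against 8.14, 8.06 and 7.79 in WT whole leukemia, so that all KO arrays lay below all WT arrays. By median these monocyte genes differed by -0.66 between KO and WT, 12 of 14 lower, and 0 were called. KO L-GMP array 2, lowest of the 12 for 8 of the 33 neutrophil genes such as Chil3, Hp and Cd177, and for 11.4% of all genes, had the highest mean of 7 (of 10 listed) eosinophil, basophil and mast cell genes, 8.06 where the remaining 11 lay between 5.5 and 6.66. The part of those cells in its low neutrophil values was not tested. The mean of 4 T and NK cell genes was 5.85, 5.81 and 5.57 in KO whole leukemia, against 5.35, 5.27 and 5.24 in WT whole leukemia. Of the 4, Nkg7, a granule protein gene of cytotoxic cells, differed by 1.64 between KO and WT, with no overlap, and Cd3e, Cd8a and Klrb1c by 0.20, 0.11 and -0.12, with a list median of 0.16. The mean of 5 B cell genes lay between 5.51 and 5.85 on the 6 whole leukemia arrays. Of the sorting antigens, Cd34, the marker that completes the L-GMP gate, lay at 9.45 to 9.90 in KO L-GMP against 5.54 to 7.05 in KO whole leukemia, and at 9.57 to 10.05 in WT L-GMP against 8.35 to 9.38 in WT whole leukemia. The other 3 gate genes, Kit, Fcgr3 and Fcgr2b, overlapped between populations in both genotypes, with L-GMP minus whole leukemia differences of 1.14, 0.08 and 0.46 in KO and 0.56, -0.32 and -0.05 in WT.

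**Figure D5:**
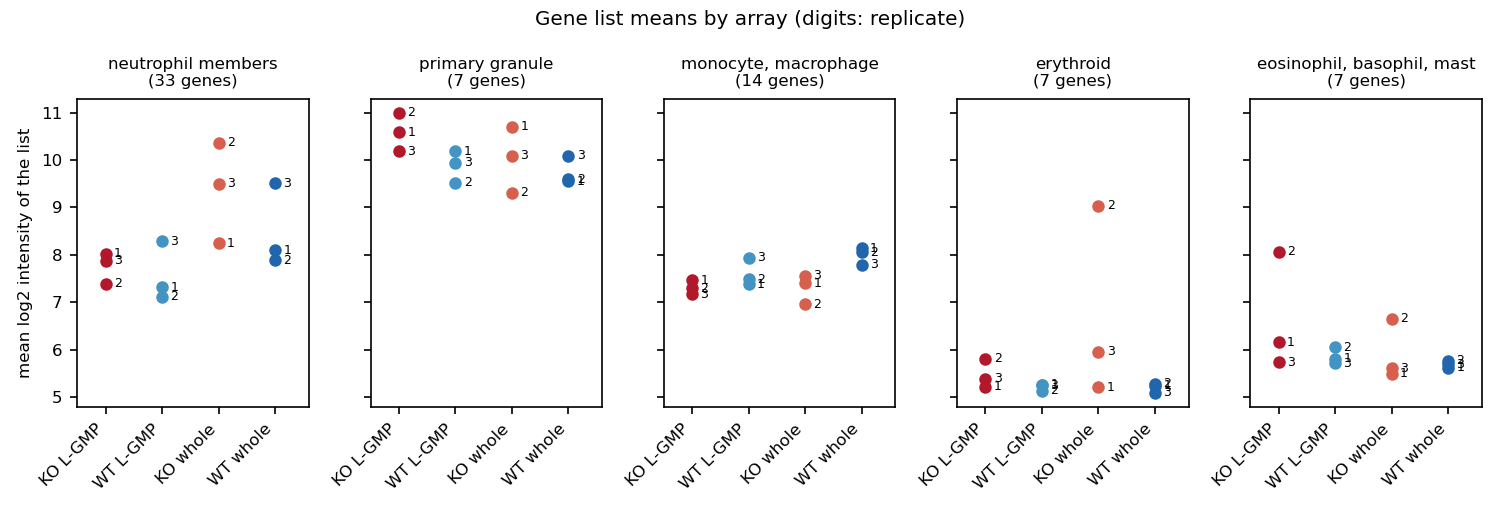
Mean log2 intensity per array of the 33 neutrophil genes and of 4 other gene lists, with digits giving the replicate. KO whole array 2 is highest for both the neutrophil genes (10.36) and the erythroid list (9.04), and KO L-GMP array 2 is highest for the eosinophil, basophil and mast cell list (8.06).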

How the data were processed

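RNA from 12 sorted samples was hybridised to 1-colour mouse arrays after NuGEN amplification and biotin labelling, per the labels' protocols. Each deposited intensity is a linear value of 1 probe set, between 18.0 and 9108, and array medians lay between 36.9 and 39.3. How these intensities were scaled, and with which software, is not given in the sources used here. Precision is limited by the number of arrays. The log2 values were analysed without rescaling or a pseudocount. Of 33794 probe sets, 23521 had 1 gene symbol in the platform annotation, 1814 had several and 8459 were not listed. Each gene took its single-symbol probe set of highest mean, and 4431 genes below 4.72 were left out. Identifiers of all 33 members matched the RefSeq gene table of GRCm38.p6.

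Comparisons used R 4.3.3 with limma 3.58.1 and statmod 1.5.0, with lmFit and eBayes on 4 group means over all 12 arrays (8 residual and 2.36 prior degrees of freedom), with Benjamini-Hochberg adjustment over 17749 genes and a threshold of 0.05. The code was tested on simulated data. With 3 arrays against 3, the smallest p that an exact two-sided permutation test allows is 0.1, so none is given. Alternatives were other filters, quantile normalization, the mean of probe sets, trended and robust variance, array weights, the compared groups alone, replicate blocks and leaving arrays out. Non-overlap counts without single arrays were added after seeing the data. All members, role classes and gene lists were chosen with earlier results of these data known. Per-array values are printed for the 2 members of each class with the largest difference between KO and WT whole leukemia and for the brightest member of each class. Olfm4 and other members outside that rule were chosen after their values were seen. From the other lists at most 3 genes of lowest p were named, with the gate genes, the T and NK cell genes, Stfa1, Stfa2, Prkaa1 and Prkaa2 chosen after their values were seen.

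Pairing by replicate number was checked on deviations from the group means over all genes tested. WT L-GMP and WT whole leukemia correlated at 0.36, 0.62 and 0.30 for numbers 1, 2 and 3, each best with its own number. KO L-GMP and KO whole leukemia correlated at 0.13, 0.09 and 0.43, and KO L-GMP number 2 correlated better with KO whole leukemia number 1, at 0.19.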

Additional observations from a re-analysis of the deposited data

How the results depend on the processing

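Across the alternatives 0 members were called, with the 1 exception of Ly6g in L-GMP against whole leukemia in KO without KO whole array 1. The median difference over the 33 genes ranged from -0.12 to 0.33 for KO against WT in L-GMP, 0.19 to 1.31 in whole leukemia, -1.74 to -1.11 for L-GMP against whole leukemia in KO, -1.15 to -0.29 in WT and -0.99 to 0.01 for the interaction when 1 array was left out. Without both KO arrays numbered 2 it was -0.87 for L-GMP against whole leukemia in KO. Single member values that were never called changed sign in 53, 23, 9, 12 and 84 of the refits of these 5 comparisons, in that order. They kept it in 673, 703, 716, 714 and 609, which include many refits that cannot change a member's difference. The cause of these shifts was not tested.

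The count of genes called in KO against WT in L-GMP, 1 as reported, was 0 with no filter on dim probe sets, 2 with the mean of probe sets, 2 with trended and robust variance, 4 with array weights, 0 with the 2 groups alone and 0 with a replicate block by number, and 0 to 2 when 1 array was left out. In whole leukemia it was 0, and 0 to 1 when 1 array was left out, and 1 without both KO arrays numbered 2. For L-GMP against whole leukemia in KO it was 0 as reported, 1 with the lowest 50% left out, 1 with trended and robust variance, 2 with a replicate block by genotype and number, and 0 to 40 when 1 array was left out, while members called were 0 to 1. Because each group holds every replicate number, a replicate block cannot move a member's difference. It changed no other call.

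Members whose arrays did not overlap numbered 3 to 9 (higher, KO against WT in L-GMP), 0 to 18 (higher, KO against WT in whole leukemia), 1 to 2 (lower, KO against WT in whole leukemia), 15 to 26 (lower, L-GMP against whole leukemia in KO) and 4 to 16 (lower, L-GMP against whole leukemia in WT) when each array was left out in turn, where 7.55% to 14.4% of all genes did so. Signal over background limits Chil1, Retnlg, Ly6g, Itgb2l and Adam8, which lay within 1 log2 of the dim level on all 6 L-GMP arrays, so their differences between populations may be understated.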

Other observations

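Stfa3 belongs to the stefin genes, inhibitors of cysteine proteases made by maturing mouse granulocytes. It measured 6.37, 4.54 and 7.01 in KO L-GMP, against 5.47, 4.97 and 9.58 in WT L-GMP. In whole leukemia it measured 9.03, 9.63 and 11.64 in KO, against 9.55, 6.84 and 11.79 in WT. The number-3 arrays were the highest in each of the 4 groups, as for Olfm4, while KO whole array 2, the highest for 25 of the 33 members, lay below KO whole array 3. For Stfa1 and Stfa2 the number-3 array was the highest in 3 of the 4 groups, whereas in KO L-GMP array 1 was the highest, at 11.92 for Stfa1 and 5.25 for Stfa2. L-GMP minus whole leukemia in KO was -4.13 for Stfa3 (SE 1.44, adjusted p = 0.671 by limma), with no overlap. Stfa genes are closely related copies in a cluster, and whether a probe set also binds RNA of another copy was not tested. Of the 14 further granule genes above the filter, 10 were lower in KO L-GMP than in KO whole leukemia and 13 were lower in WT L-GMP than in WT whole leukemia, with 0 called by limma.

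Cst7, the gene of the protease inhibitor cystatin F, measured 8.63, 10.84 and 9.44 in KO L-GMP, against 8.82, 8.0 and 8.30 in KO whole leukemia. The difference was 1.26 (SE 0.49, adjusted p = 0.671 by limma), and the groups overlapped. On KO L-GMP array 2, where Cst7 was at 10.84, Stfa1 was at 5.0. For Stfa1 the other 11 arrays lay between 9.78 and 12.78.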
